A study of Homo sapiens with 6 samples.

Results

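The genes of cholesterol synthesis and the targets of the sterol regulatory element-binding proteins (SREBPs) were examined in HSC-4 cells, a human cell line established from an oral squamous cell carcinoma. The set holds 31 genes, listed by symbol and function with earlier results of these data known, and all 31 were among the 15001 genes that passed a filter on low counts. It was divided into 18 enzymes of the sterol branch, 7 enzymes of the fatty acid branch and 6 genes for SREBPs, their regulators and a sterol carrier. mRNA was sequenced in 3 libraries of cells given 50 μM DAPT for 24 h and in 3 control libraries. DAPT inhibits γ-secretase, the protease that frees the intracellular domain of Notch receptors. By the study's methods the controls received the DMSO vehicle for the same time, whereas the deposited count columns name them GM without explaining the letters. If the controls received growth medium alone, the effect of the vehicle cannot be told apart from that of DAPT. HSC-4 is 1 cell line, and the labels do not say whether the libraries of a group came from separate cultures, so the p-values measure the spread between these libraries, which may be technical.

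Cholesterol is built from acetyl-CoA through mevalonate, farnesyl diphosphate, squalene and lanosterol, and the mevalonate steps also supply isoprenoids for protein prenylation, ubiquinone and dolichol. SREBPs are made as membrane proteins of the endoplasmic reticulum. When sterols are low, the escort protein SCAP carries them to the Golgi apparatus, where proteases release the transcription factor, and when sterols are high, INSIG proteins hold SCAP back. SREBP-2, from *SREBF2*, acts mainly on sterol genes and SREBP-1c, a product of *SREBF1*, mainly on fatty acid genes, while *SREBF1* and *SCD* are also targets of the liver X receptors.

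Total counts lay between 12276313 and 16317672 per library. The Notch targets fell with DAPT, *HES1* from 47.0 to 27.5 CPM (read counts relative to the library size after TMM scaling) and *HEY1* from 34.6 to 8.75 CPM in group means. Most squamous epithelial markers were abundant, keratin 5 (*KRT5*) first among them. Keratin 14 (*KRT14*) was not, at a mean of 3.17 CPM in the controls and 0.443 CPM with DAPT. Of the 9 such markers, 6 were lower and 2 higher with DAPT, beside 18% and 17.2% of all genes. Control library 1 stood apart from the rest. The summed level of 5 fibroblast markers was 546 CPM there and between 48.8 and 56.6 CPM in the other 5 libraries. In those 5 libraries most of the sum was *COL1A1*, at 48.3 to 54.0 CPM, and every other marker was at most 2.02 CPM. Vimentin (*VIM*), chosen after its values were seen, was at 239.7 CPM in control library 1 against at most 2.24 in the others. DAPT library 1 also stood apart from its group, with a chi-square per degree of freedom of 4.08 and 3.90 against the other DAPT libraries, which gave 1.81 between themselves, beside 5.68 and 5.58 for control library 1 against the other controls, which gave 1.58. The summed leukocyte, endothelial, adipocyte and hepatocyte markers stayed at or below 12.8 CPM in each library. Counts of lowered and raised genes are therefore also given without control library 1 and, where they differ, without DAPT library 1; the part of this RNA in the other values was not tested. In bulk RNA, fewer cells of a kind and less RNA per cell cannot be told apart.

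Of the 31 genes, 16 were lower and 1 was higher with DAPT when edgeR's quasi-likelihood F test, adjusted by Benjamini-Hochberg over all genes tested, gave a p-value under 0.05. Among all 15001 genes 18% were lower and 17.2% higher by this rule, 35.2% in all. Scaling by library size alone gave 2156 lower and 3445 higher genes in place of 2707 and 2574, and 15 lower and 1 higher of the 31. Without control library 1, 19 of the 31 were lower and 1 higher, against 19.1% and 18% of the genes tested in that fit. Without DAPT library 1, 15 were lower and 1 higher, against 15.6% and 13.7%. The median log2 fold change of the 31 genes was -0.23, beside 0.01 over all genes, and 30 of the 31 values were below 0. At least a 2-fold decrease was found for 2 of the 31, *SCD* and *FADS2*, where 1.77% of all genes reached it, and a 2-fold increase for 0 of them, where 0.600% did. Without control library 1 the 2-fold decreases among the 31 were 0, where 1.78% of all genes reached it. Without DAPT library 1 there was 1 among the 31, where 249 of the 15190 genes tested in that fit reached it. In 18 genes the 3 DAPT libraries lay below the 3 controls, and in 1 above them, where 22.7% and 23.6% of all genes did so (46.3% together).

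**Figure D1:**
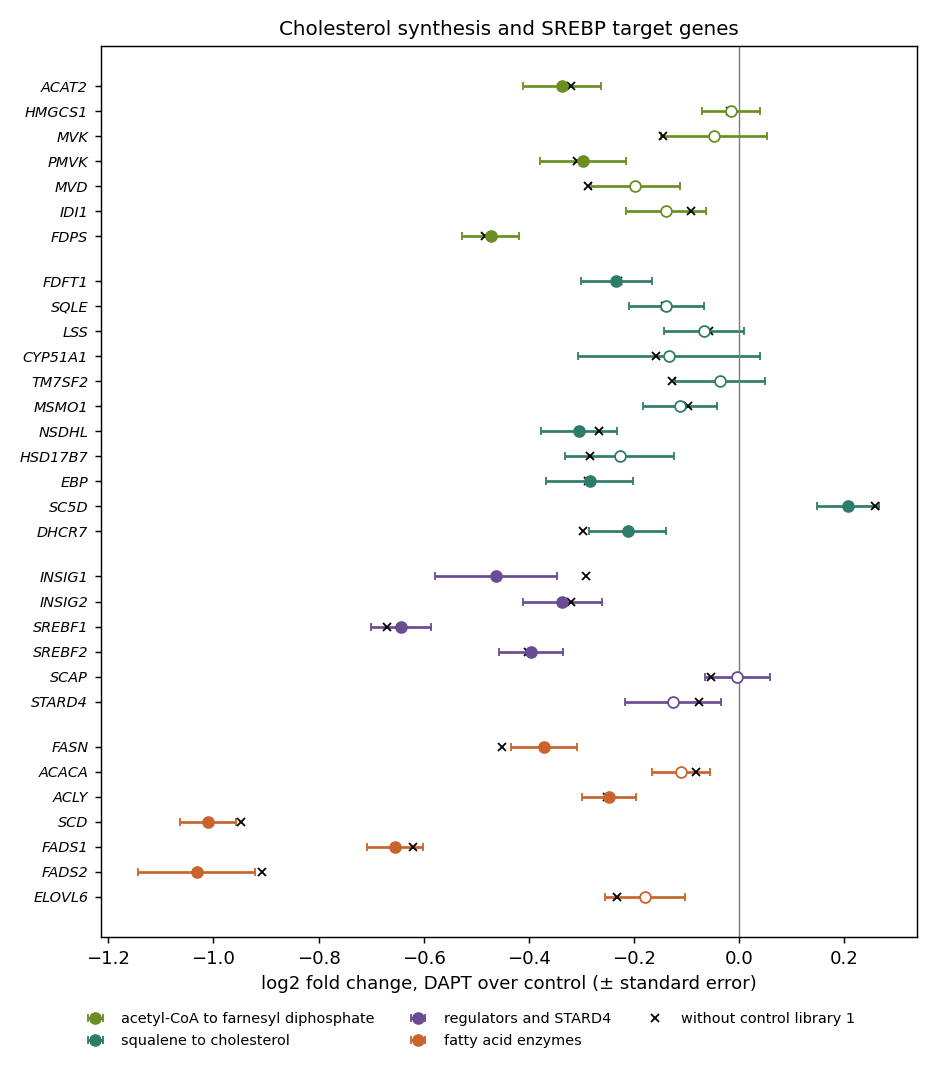
Log2 fold change of DAPT over control for the 31 genes (points, with the standard error as bars; filled where the adjusted p-value is under 0.05, open where it is not), grouped by step. Crosses give the value without control library 1; *SC5D* is the only filled point above 0, and *SCD* and *FADS2* lie farthest to the left.

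Both SREBP genes and both INSIG genes were lower with DAPT, while *SCAP* and *STARD4* did not pass the test. The count of 4 lower of 6 was the same without control library 1, beside 18% of all genes with every library and 19.1% in that fit. *SREBF1* (ENSG00000072310, chromosome 17, 17810399 to 17837002 of GRCh38) was at 108, 118 and 111 CPM in the controls and at 69.1, 70.8 and 76.3 CPM with DAPT. The groups were far apart relative to their spread, with a log2 fold change of -0.64 (SE 0.06, edgeR adjusted p = 1.13e-08). *SREBF2* (ENSG00000198911, chromosome 22, 41833079 to 41907307) was at 66.2, 67.9 and 66.0 CPM in the controls and at 49.9, 48.6 and 53.6 CPM with DAPT. Every DAPT library lay below every control here too, and the log2 fold change was -0.40 (SE 0.06, edgeR adjusted p = 2.85e-05). Counts cover all transcripts of a gene, so the SREBP-1a and SREBP-1c transcripts of *SREBF1* were not separated. The ratio of *SREBF1* to *SREBF2* counts was 1.69 ± 0.0534 in the controls and 1.42 ± 0.0351 with DAPT (SD, n = 3 each). All 3 DAPT libraries had the lower ratio, with a two-sided exact permutation p of 0.10, the smallest that 3 against 3 libraries allow. Adjusted over the 4 gene pairs compared in this way, this exact p was 0.133.

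*INSIG1*, itself a known SREBP target, was at 21.1, 16.6 and 14.6 CPM in the controls and at 12.3, 13.1 and 12.9 CPM with DAPT. The controls were uneven, with library 1 the highest, and the log2 fold change of -0.46 (SE 0.12, edgeR adjusted p = 0.00400) shrank to -0.29 (adjusted p = 0.0329) without control library 1. *INSIG2*, which encodes the second such retention protein, was at 42.2, 42.4 and 38.9 CPM and at 30.3, 32.8 and 34.9 CPM. Its groups did not overlap, and its log2 fold change was -0.34 (SE 0.07, edgeR adjusted p = 0.00135). The *INSIG1* to *INSIG2* count ratio overlapped between the groups, at 0.422 ± 0.0684 and 0.392 ± 0.0193 (SD, n = 3 each; exact permutation p = 0.80, adjusted 0.80). *SCAP* was at 72.8, 83.8 and 78.0 CPM and at 77.8, 73.3 and 82.8 CPM. These overlapped throughout, and the log2 fold change of -0.0034 had a standard error of 0.06 (edgeR adjusted p = 0.973). *STARD4*, which encodes a cytosolic carrier of cholesterol, lay between 15.5 and 17.2 CPM in the controls and between 14.6 and 15.3 CPM with DAPT, a difference that failed the test (log2 fold change -0.13, SE 0.09, edgeR adjusted p = 0.304).

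**Figure D2:**
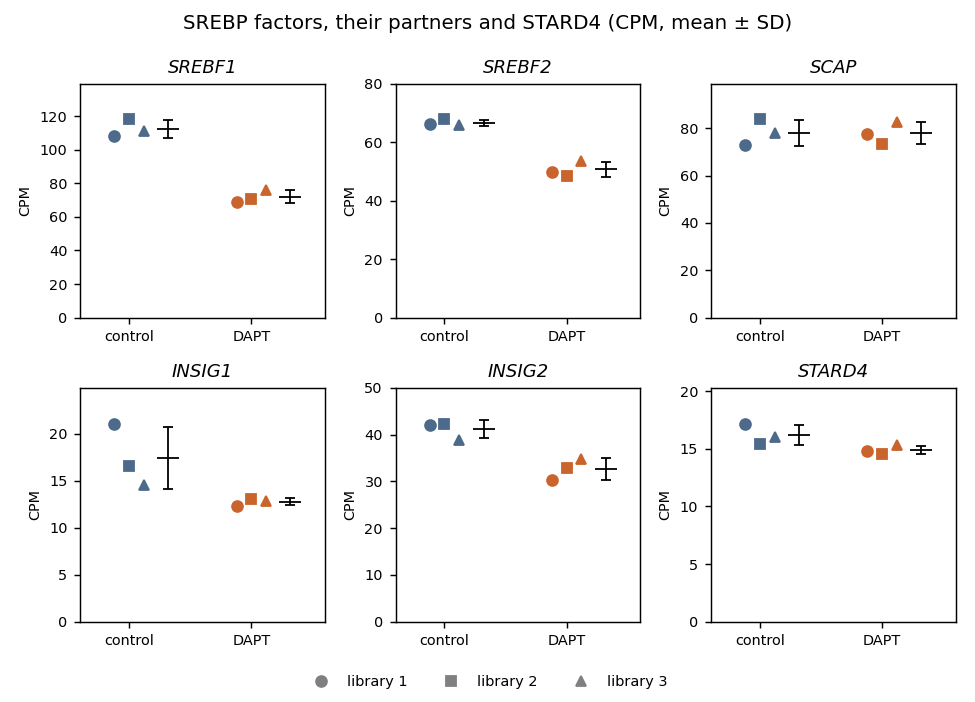
CPM of *SREBF1*, *SREBF2*, *SCAP*, *INSIG1*, *INSIG2* and *STARD4* in each library (symbols), with the mean and SD of 3 libraries per group (black). *SREBF1* fell from a mean of 112 to 72.1 CPM and *SREBF2* from 66.7 to 50.7 CPM, *SCAP* overlapped between the groups, and control library 1 is the highest value of *INSIG1*.

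Both SREBP genes carry a microRNA of the miR-33 family within their bounds and on their strand, and these microRNAs are known to target transcripts of cholesterol export. They are shown because their host genes fell, with the seed (bases 2 to 8) in capitals, from RefSeq on GRCh38.p14. The seed was the same in both.
hsa-miR-33b-5p, in *SREBF1*: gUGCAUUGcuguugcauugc
hsa-miR-33a-5p, in *SREBF2*: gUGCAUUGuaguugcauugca
The hairpins held 0 reads in all 6 libraries together, and libraries of this kind are not made to capture mature microRNAs, so the microRNAs themselves were not measured.

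In the steps from acetyl-CoA to farnesyl diphosphate, 3 of 7 enzymes were lower with DAPT, beside 18% of all genes. The other 4 did not pass the test. Without control library 1 the count was 4, beside 19.1% of the genes tested in that fit. Without DAPT library 1 it was 2, beside 15.6%. *FDPS* (ENSG00000160752, chromosome 1, 155308748 to 155320666), which encodes farnesyl diphosphate synthase at the branch point of sterols and other isoprenoids, was at 125, 131 and 125 CPM in the controls. With DAPT it was at 86.1, 95.8 and 93.3 CPM, below every control, and the log2 fold change was -0.47 (SE 0.05, edgeR adjusted p = 5.99e-07). This was the largest decrease among the 18 sterol enzymes. *FDPS* has processed pseudogenes, and reads that mapped to several places were not counted, so its level is uncertain. The 8 annotated pseudogenes held at most 2 reads in a library. This cannot show how many reads were lost, since shared reads were counted for neither gene. The antisense gene *RUSC1-AS1*, which covers 18.6% of the exonic bases of *FDPS*, held 81 to 134 reads, against 1214 to 2011 for *FDPS*. *ACAT2*, which encodes the cytosolic acetoacetyl-CoA thiolase, was at 40.0, 36.6 and 40.9 CPM and at 29.3, 31.5 and 32.3 CPM. Genes on the other strand cover 52.3% of its exonic bases, and the main one, *TCP1*, held 3773 to 5434 reads in a library. The level of *ACAT2* is uncertain if strand was not kept, although strand was kept at *HMGCS1*, described below. *ACAT2* fell by 20.8% (log2 fold change -0.34, SE 0.07, edgeR adjusted p = 0.00129). *PMVK*, for phosphomevalonate kinase, was at 23.5, 23.9 and 24.3 CPM and at 17.7, 20.04 and 20.7 CPM. It fell by 18.6% (log2 fold change -0.30, SE 0.08, edgeR adjusted p = 0.00714), and without DAPT library 1 its adjusted p was 0.0516 from edgeR.

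*HMGCS1*, the HMG-CoA synthase and a classical SREBP target, gave a contrast to these. Its values were 98.9, 98.6 and 100.1 CPM in the controls and 91.3, 100.2 and 103 CPM with DAPT. A gene on the other strand covers 37.7% of its exonic bases. That gene held at most 4 reads in a library, against 1209 to 1588 for *HMGCS1*, so strand was kept here. The DAPT libraries lay on both sides of the controls, and the log2 fold change was -0.02 (SE 0.05, edgeR adjusted p = 0.857). *MVK*, for mevalonate kinase, lay between 13.9 and 17.3 CPM in the controls and between 14.8 and 16.4 CPM with DAPT, and overlapped as well. *MVD*, for the decarboxylase, and *IDI1*, for the isomerase, had log2 fold changes of -0.20 and -0.14 with overlapping groups, and edgeR's adjusted p-values were 0.0740 and 0.159. Without control library 1 that of *MVD* was 0.00518.

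Between squalene and cholesterol, 4 of 11 enzymes were lower and 1 was higher, beside 18% and 17.2% of all genes, and 6 did not pass the test. Without control library 1 the number lower was 5, beside 19.1% of the genes tested in that fit. *FDFT1*, the squalene synthase, was at 49.5, 49.0 and 49.4 CPM and at 39.2, 43.9 and 42.9 CPM, without overlap. It fell by 15.0% (log2 fold change -0.23, SE 0.07, edgeR adjusted p = 0.00980), and without DAPT library 1 the adjusted p was 0.0618 from edgeR. *NSDHL*, which takes part in removing the methyl groups at carbon 4, was at 38.1, 34.9 and 36.0 CPM and at 28.7, 29.6 and 30.0 CPM. It fell by 19.0% (log2 fold change -0.30, SE 0.07, edgeR adjusted p = 0.00243) and was called in each of the 6 fits that left out 1 library. *EBP*, the sterol isomerase, was at 21.9, 20.9 and 23.6 CPM and at 18.6, 17.8 and 17.98 CPM, again without overlap. Its log2 fold change was -0.28 (SE 0.08, edgeR adjusted p = 0.0103), with 0.0602 when control library 3 was left out. Another annotated gene covers 36.4% of its exonic bases on the same strand, and reads there were not counted. *DHCR7*, which catalyses the last step of one route to cholesterol, was at 56.7, 68.7 and 67.4 CPM and at 57.8, 50.8 and 57.4 CPM. The groups overlapped through control library 1, and the log2 fold change of -0.21 (SE 0.07, edgeR adjusted p = 0.0306) was called in 2 of the 6 fits that left out 1 library. It was -0.30 without control library 1 (edgeR adjusted p = 4.77e-04).

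*SC5D*, the sterol C5-desaturase, was the member that rose. It was at 63.9, 59.3 and 56.4 CPM in the controls and at 69.2, 68.6 and 69.9 CPM with DAPT, all above the controls. The log2 fold change was 0.21 (SE 0.06, edgeR adjusted p = 0.00997), 0.26 without control library 1, and 0.16 without control library 3, where the adjusted p was 0.0867 from edgeR. *SQLE*, the rate-limiting squalene epoxidase, was at 53.7, 53.9 and 54.7 CPM in the controls and at 54.9, 44.97 and 47.3 CPM with DAPT. DAPT library 1 lay above the controls and the other two below them, so that the log2 fold change of -0.14 (SE 0.07, edgeR adjusted p = 0.137) became -0.23 (adjusted p = 0.0199) when that library was left out. *LSS*, *TM7SF2*, *MSMO1* and *HSD17B7* had log2 fold changes of -0.07, -0.04, -0.11 and -0.23 and did not pass the test. *HSD17B7* passed without control library 1 (edgeR adjusted p = 0.0429), and its pseudogene *HSD17B7P2* held between 7 and 21 reads in a library. *CYP51A1*, the lanosterol demethylase, had between 76 and 127 reads in a library. Annotated genes on its strand cover 80.6% of its exonic bases, where reads were not counted, so its level of 8.14 CPM in the controls is not its full level.

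The enzymes of the fatty acid branch included the largest decreases. In this branch 5 of 7 genes were lower with DAPT, beside 18% of all genes. Without control library 1 the number lower was 6, beside 19.1% of the genes tested in that fit. The median of their log2 fold changes was -0.37. The other 2 genes had log2 fold changes below 0 but did not pass the test. *SCD* (ENSG00000099194, chromosome 10, 100347233 to 100364826) encodes stearoyl-CoA desaturase, which makes oleic acid from stearic acid. It was at 402, 348 and 364 CPM in the controls and at 181, 184 and 188 CPM with DAPT. The DAPT values lay close together and far below the controls, and *SCD* fell by 50.4% (log2 fold change -1.01, SE 0.05, edgeR adjusted p = 3.56e-12). *SCD* was also the highest of the 31 genes per length of exon, with a mean level of 70.8 CPM per kilobase in the controls and 35.1 with DAPT, ahead of *FDPS* at 34.2 and 24.7 CPM per kilobase. Its log2 fold change was -0.95 without control library 1, which is less than 2-fold.

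*FADS1* (ENSG00000149485) and *FADS2* (ENSG00000134824) encode the delta-5 and delta-6 desaturases of polyunsaturated fatty acids and lie on opposite strands of chromosome 11, with *FADS1* (61799625 to 61829318) inside the annotated span of *FADS2* (61792980 to 61867354). *FADS1* was at 126, 120 and 116 CPM in the controls and at 77.8, 77.4 and 74.7 CPM with DAPT, a log2 fold change of -0.65 (SE 0.05, edgeR adjusted p = 3.35e-09). *FADS2* was at 20.2, 16.5 and 15.8 CPM and at 8.77, 8.77 and 8.30 CPM, a log2 fold change of -1.03 (SE 0.11, edgeR adjusted p = 2.63e-07). Neither gene overlapped between the groups. The value of *FADS2* rested on 108 to 325 reads in a library and was -0.91 without control library 1. Of the exonic bases of *FADS1*, 4.79% also lie in *FADS2* exons on the other strand, and the counting was stated to use strand. The count ratio of *FADS2* to *FADS1* was 0.145 ± 0.0136 in the controls and 0.112 ± 0.00115 with DAPT (SD, n = 3 each; exact permutation p = 0.10, the smallest possible, adjusted 0.133).

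*FASN*, the fatty acid synthase, was at 172, 201 and 208 CPM in the controls and at 149, 144 and 156 CPM with DAPT. Control library 1 was the lowest of the controls but stayed above the DAPT libraries, and the log2 fold change was -0.37 (SE 0.06, edgeR adjusted p = 1.28e-04), or -0.45 without that library. *ACLY*, which makes cytosolic acetyl-CoA from citrate for both branches, was at 141, 143 and 141 CPM and at 126, 115 and 117 CPM. It fell by 15.8% (log2 fold change -0.25, SE 0.05, edgeR adjusted p = 7.31e-04). *ACACA*, the acetyl-CoA carboxylase of the committed step, lay between 84.0 and 92.98 CPM in the controls and between 81.2 and 85.4 CPM with DAPT. These groups overlapped, and its log2 fold change of -0.11 did not pass (SE 0.06, edgeR adjusted p = 0.129). *ELOVL6*, which elongates palmitic acid, was at 32.7, 35.7 and 37.4 CPM and at 29.4, 32.7 and 31.3 CPM. The highest DAPT value lay just under the lowest control, and the log2 fold change was -0.18 (SE 0.08, edgeR adjusted p = 0.0738), or -0.23 with an adjusted p of 0.0155 without control library 1.

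**Figure D3:**
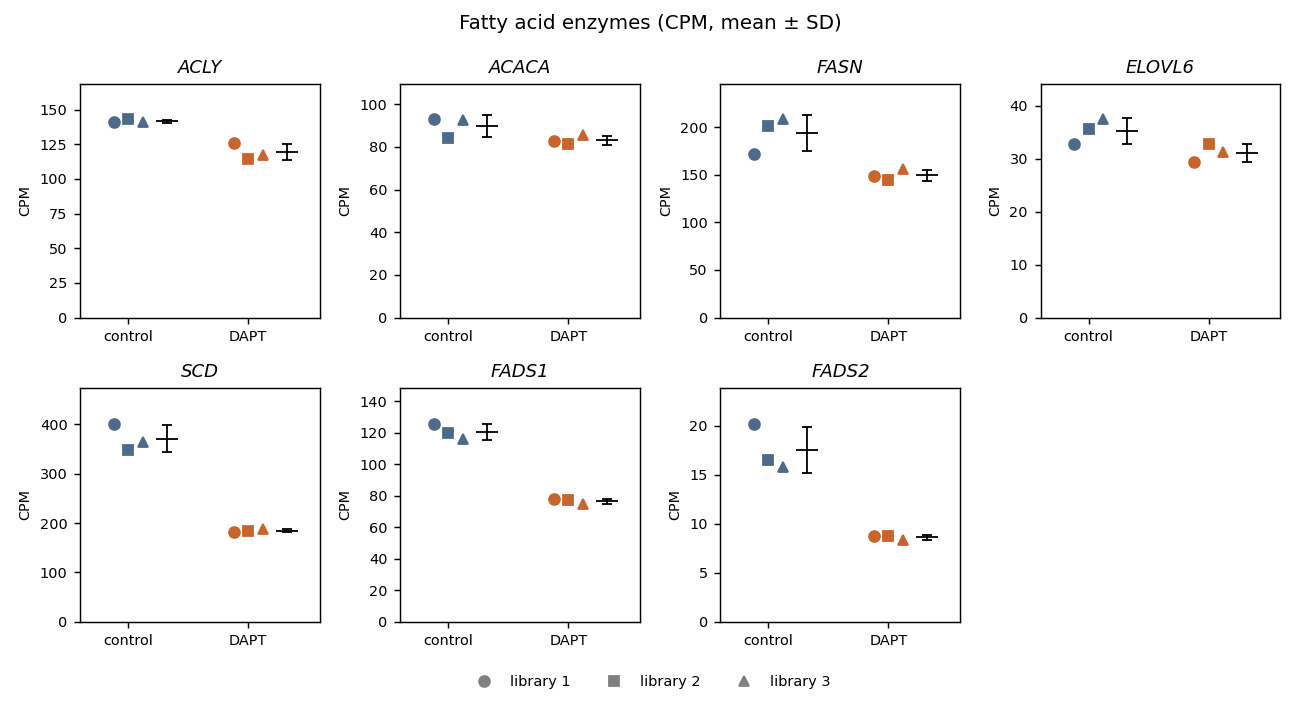
CPM of the 7 fatty acid enzymes in each library (symbols), with the mean and SD of 3 libraries per group (black). *SCD* fell from a mean of 371 to 184 CPM, *FADS1* from 121 to 76.6 and *FADS2* from 17.5 to 8.61, while *ACACA* overlapped between the groups.

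Set side by side, 7 of 18 sterol enzymes (38.9%) and 5 of 7 fatty acid enzymes (71.4%) were lower with DAPT, beside 18% of all genes, and the median log2 fold changes were -0.17 and -0.37. Without control library 1 these were 9 sterol enzymes with a median of -0.19 and 6 fatty acid enzymes with a median of -0.45, and without DAPT library 1 the counts were 6 and 5. Together, the sterol enzymes were at 755, 769 and 775 CPM in the controls and at 665, 682 and 691 CPM with DAPT. The fatty acid enzymes were at 986, 948 and 975 CPM and at 655, 643 and 660 CPM. Both sums were lower in every DAPT library than in every control, and the fatty acid sum by more. CPM sums favour long transcripts, so they are compared between groups and not between branches. The ratio of the sterol to the fatty acid sum was 0.766, 0.811 and 0.795 in the controls and 1.01, 1.06 and 1.05 with DAPT. On the log2 scale the ratio was 0.40 higher with DAPT, also when counts were summed per kilobase of exon, and 0.37 higher without control library 1. The share of *SCD* in the fatty acid sum was 38.2% ± 2.17 in the controls and 28.2% ± 0.496 with DAPT (SD, n = 3 each). With *FDPS* and *SCD*, the highest enzyme of each branch, left out, the log2 ratio was 0.23 higher with DAPT, and the groups still did not overlap. This comparison of branches is a description without a test, since the genes were chosen with earlier results of these data known.

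**Figure D4:**
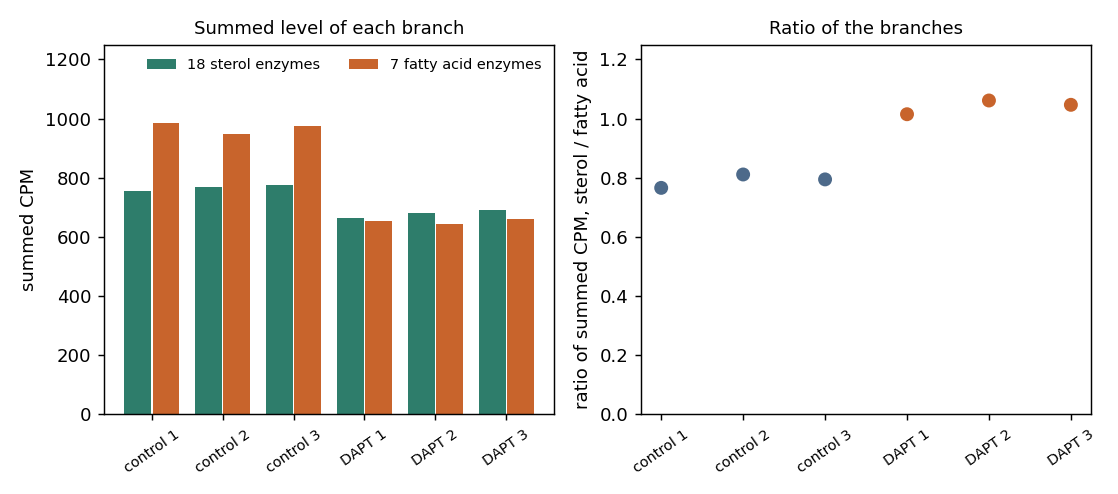
Left, CPM summed over the 18 sterol enzymes and the 7 fatty acid enzymes in each library, with bars from 0. Right, the ratio of the sterol to the fatty acid sum, which lies between 0.766 and 0.811 in the control libraries and between 1.01 and 1.06 in the DAPT libraries.

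Related genes outside the set were read against the 18% of all genes that were lower and the 17.2% that were higher. Of 21 other tested genes of fatty acid synthesis, activation and glycerolipid synthesis, 3 were lower and 4 higher by edgeR, which is near those shares, 4 were lower and 3 higher without control library 1, and DESeq2 called 1 higher. The median log2 fold change was -0.00073. *MLXIPL*, which encodes the glucose-responsive factor ChREBP that also acts on lipogenic genes, fell most, from 3.43, 4.26 and 4.31 CPM to 2.14, 1.32 and 2.46 CPM (log2 fold change -1.01, SE 0.22, edgeR adjusted p = 0.00111). *LPIN1*, for the phosphatidic acid phosphatase lipin-1, rose most, from 28.0, 27.9 and 28.2 CPM to 36.9, 39.6 and 40.8 CPM (log2 fold change 0.48, SE 0.07, edgeR adjusted p = 2.64e-05). *SCD5*, the second stearoyl-CoA desaturase, fell by 0.31 on the log2 scale (edgeR adjusted p = 0.00133), and the count ratio of *SCD* to *SCD5* was 8.34 ± 0.588 in the controls and 5.13 ± 0.165 with DAPT (SD, n = 3 each; exact permutation p = 0.10, the smallest possible, adjusted 0.133).

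Of 10 genes for SREBP processing and sterol-dependent degradation, 0 were lower and 4 higher by edgeR, and the median log2 fold change was 0.12. At an unadjusted p under 0.05, and by DESeq2 and limma-voom, the number lower was also 0. DESeq2 called 2 higher, and edgeR called 5 higher without control library 1 and 3 without DAPT library 1. *MBTPS1*, the site-1 protease that makes the first cut in SREBPs, was at 193, 185 and 190 CPM in the controls and at 228, 217 and 221 CPM with DAPT. All DAPT libraries were above the controls, with a log2 fold change of 0.23 (SE 0.05, edgeR adjusted p = 7.01e-04). The site-2 protease gene *MBTPS2* and the ubiquitin ligase gene *RNF139* were also higher, with log2 fold changes of 0.21 and 0.18. Among 12 genes that use isoprenoids, 1 was lower and 4 were higher, also without control library 1 (1 and 3 without DAPT library 1), beside 18% and 17.2% of all genes. *PDSS1*, of the ubiquinone side chain, had a log2 fold change of -0.43 (edgeR adjusted p = 0.0134).

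Among 10 tested genes of sterol uptake, transport and esterification, 4 were lower and 2 higher (3 and 3 without control library 1, 3 and 1 without DAPT library 1, and 2 and 1 by DESeq2), beside 18% and 17.2% of all genes. *SCARB1*, the receptor for high-density lipoprotein, fell most, from 84.6, 96.8 and 94.3 CPM to 65.7, 59.5 and 60.8 CPM (log2 fold change -0.57, SE 0.06, edgeR adjusted p = 2.77e-07). *OSBP*, for an oxysterol-binding transfer protein, rose most, with a log2 fold change of 0.22 (edgeR adjusted p = 0.00162). Of 8 liver X receptor genes, partners and targets, 2 were lower and 0 higher by edgeR, near the 18% lower of all genes, with DESeq2 and limma-voom giving the same counts. At an unadjusted p under 0.05 from edgeR 1 was higher, and 1 was also higher without control library 1 or without DAPT library 1. *ABCA1*, the cholesterol exporter, had the larger change of these, from 49.0, 45.1 and 46.8 CPM to 34.7, 30.8 and 34.2 CPM (log2 fold change -0.50, SE 0.07, edgeR adjusted p = 1.57e-05). The receptor genes *NR1H2* and *NR1H3* did not pass the test, with log2 fold changes of 0.01 and 0.27 and adjusted p-values of 0.912 and 0.121 from edgeR.

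SREBPs bind sterol regulatory elements, often near a CCAAT box bound by NF-Y, and such elements can lie outside a promoter window. RefSeq windows of 250 bases before to 50 after a start site were found for 27 of the 31 genes and searched on both strands. TCACNCCAC was found in 1 of 27 genes, *SREBF2*, and in 1.13% of all 35116 windows. The wider TCACNCNAC, which holds every match of the former, was found in 4 of 27 (*SREBF2*, *FDPS*, *HSD17B7* and *FADS2*), in 2.55% of all windows and in 3.3% of the 11073 tested genes with a window. CCAAT was found in 20 of 27 genes (74.1%), in 34.6% of all windows and in 42.8% of the tested genes. CACGTG, an E-box that SREBPs can also bind, was found in 4 of 27 genes and in 12.2% of the tested genes. The part of the window upstream of annotated untranslated bases is shown for both SREBP genes and for the most strongly lowered gene with a window in each branch by adjusted p-value, 5′ to 3′ on the gene's strand (GRCh38.p14), with TCACNCNAC and CCAAT matches on either strand in capitals.
*SREBF2*, chr22:41832855-41833104, plus strand: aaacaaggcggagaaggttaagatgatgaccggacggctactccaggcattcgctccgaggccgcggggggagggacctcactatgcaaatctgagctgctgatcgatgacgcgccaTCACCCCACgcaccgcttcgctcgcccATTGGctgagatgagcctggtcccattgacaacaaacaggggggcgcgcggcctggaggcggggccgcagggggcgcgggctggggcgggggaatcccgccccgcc
*SREBF1*, chr17:17837003-17837236, minus strand: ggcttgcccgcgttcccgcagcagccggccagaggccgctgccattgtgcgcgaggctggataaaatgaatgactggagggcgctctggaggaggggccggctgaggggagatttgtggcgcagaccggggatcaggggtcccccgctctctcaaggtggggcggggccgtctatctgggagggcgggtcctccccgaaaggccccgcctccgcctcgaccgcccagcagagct
*SCD*, chr10:100346983-100347232, plus strand: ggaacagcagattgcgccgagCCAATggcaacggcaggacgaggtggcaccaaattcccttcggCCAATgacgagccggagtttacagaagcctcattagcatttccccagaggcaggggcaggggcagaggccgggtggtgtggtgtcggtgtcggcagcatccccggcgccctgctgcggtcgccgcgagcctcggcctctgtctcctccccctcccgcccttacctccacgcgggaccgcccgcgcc
*FDPS*, chr1:155308616-155308747, plus strand: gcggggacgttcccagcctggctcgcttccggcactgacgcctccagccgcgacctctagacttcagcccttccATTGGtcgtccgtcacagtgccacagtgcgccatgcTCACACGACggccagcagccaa
The *SREBF2* stretch held TCACCCCAC, from position -133 relative to the start site, and ATTGG, the reverse complement of CCAAT, from position -106. Its last bases lie within the counted *SREBF2* gene, which starts at 41833079. *SCD*, which fell more than *FDPS*, held CCAAT at 2 places and no match to either sterol element pattern. *SREBF1* held neither pattern in the stretch shown. That stretch lies directly upstream of the annotated *SREBF1* gene, so it does not cover the promoter of any transcript that starts within the gene.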

How the data were processed

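The deposited values were counts per gene, which the authors made from single-end reads of strand-specific mRNA libraries with HISAT2 and featureCounts 1.6.3 on GRCh38 with Ensembl release 96 (the submitters' processing notes also name Trim Galore, FastQC, bcl2fastq 2.19, HTSeq and DESeq2). Reads that mapped to several places or to overlapping genes on 1 strand were not counted. Of 58884 gene IDs, 58472 matched the table of symbols, and all 31 members were found. Genes were filtered with filterByExpr (minimum count 10), scaled by TMM and tested with edgeR 4.0.16 (robust quasi-likelihood F test, R 4.3.3) over 3 DAPT and 3 control libraries, with Benjamini-Hochberg adjustment over all 15001 genes. An adjusted p under 0.05 was called lower or higher. CPM used TMM-scaled library sizes. Total counts of 12276313 to 16317672 make 3 counts equal to 0.184 to 0.244 CPM. Alternatives were DESeq2 1.42.0, limma-voom 3.58.1, edgeR's likelihood ratio test, other scalings and filters, stricter thresholds, a replicate block and leaving out each library. Gene ratios within a library were compared by two-sided exact permutation tests.

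The members and lists were chosen with earlier results of these data known. All 31 members are described, and from each related list the called gene with the largest log2 fold change in each direction is named, with the isoform pairs and receptor genes added for context. Some genes of the related lists are not reported here by name. Promoter and microRNA sequences came from RefSeq tables (GRCh38.p14), and annotated untranslated bases (GENCODE release 44) were left out of the sequences shown.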

Additional observations from a re-analysis of the deposited data

How the results depend on the processing

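The 31 genes were each refitted under 16 alternatives, and of these 496 comparisons 473 kept their direction and side of the threshold, 9 lost the call, 4 gained it and 10 changed sign. The sign changes were in 5 genes that did not pass the test. Scaling by library size alone gave log2 fold changes of 0.032 for *HMGCS1*, 0.0099 for *TM7SF2* and 0.044 for *SCAP*, by the construction of that scaling, which raised the median of all genes to 0.06. With 1 library left out the ranges were -0.050 to 0.037 for *HMGCS1*, -0.14 to 0.017 for *MVK*, -0.28 to 0.11 for *CYP51A1*, -0.13 to 0.0064 for *TM7SF2* and -0.054 to 0.046 for *SCAP*. Of the 17 called genes, 12 were called under every alternative, and the other 5 were *PMVK*, *FDFT1*, *EBP*, *SC5D* and *DHCR7*. An adjusted p under 0.01 gave 3338 called genes in place of 5281, and a 2-fold minimum gave 356. With the 2-fold minimum the lowered genes were 2 of 31, 0 of the sterol enzymes, 2 of the fatty acid enzymes and 0 of the regulators, and 0 were raised, and the 2 fell to 0 without control library 1. With 1 library left out, between 14 and 19 members were lower and between 0 and 1 higher (0 without control library 3, for *SC5D*), 5 to 9 sterol enzymes, 5 to 6 fatty acid enzymes and 4 regulators were lower, and 4174 to 5618 genes were called. DESeq2 called 3974 genes, with 16 members lower and 1 higher. The log2 difference of the sterol to fatty acid ratio, 0.40, was 0.34 from mean log2 CPM, 0.40 from counts per kilobase and 0.23 without the highest enzyme of each branch; the cause was not tested. The *INSIG1* to *INSIG2* ratio turned from -0.10 to 0.03 on the log2 scale without control library 1, an alternative chosen after seeing the data, as were the list counts without that library and without DAPT library 1. Libraries share only replicate numbers across groups: same-numbered deviations correlated at 0.019, 0.038 and -0.019, and a replicate block gave 5295 called genes with 16 members lower and 1 higher. Depth limits genes such as *MLXIPL*, which held between 18 and 59 reads in a library.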
